A study of Mus musculus with 6 samples.

Results

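AP-1 is a transcription factor made of paired basic leucine zipper (bZIP) proteins, and its messenger RNAs were followed here in A20 cells, a B lymphoma line from a BALB/c mouse, under TGF-β and SP600125, an inhibitor of the JNK kinases. The 10 members were Jun, Junb, Jund, Fos, Fosb, Fosl1, Fosl2, Batf, Maff and Mafk, of 18194 genes measured. They were chosen by symbol, and 14 probe sets of the platform carry their names, 1 for each of 6 members and 2 for each of 4. Jun proteins pair with each other or with Fos proteins and bind a short DNA element, JNK phosphorylates the activation domain of Jun, and AP-1 and Smad proteins can act on the same promoters. Batf lacks an activation domain and works in lymphocytes with IRF4 and IRF8. The small Maf proteins Maff and Mafk also lack one, and pair with CNC factors such as NRF2. The arrays measure RNA, so phosphorylation of Jun by JNK, and its loss under the drug, were not seen directly.

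Each of 6 conditions had 1 array: TGF-β for 12 h or 24 h with SP600125, SP600125 alone for 24 h, TGF-β for 12 h or 24 h without drug, and untreated cells. The titles of the arrays without drug name DMSO. Doses are not given in the labels. All cells came from the same line, and no condition was repeated, so a difference between a pair of arrays has no replicate spread beside it. Drug exposure was 12 h on the 12 h array of the drug arm but 24 h on its unstimulated array. In bulk RNA, fewer cells that express a gene and less RNA per cell cannot be told apart.

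The values are linear array signals. A floor of 74.2, the 50th percentile over the 6 arrays, replaced any lower signal before log2 was taken, so a change to or from the floor is a bound. The brightest probe set stood for its gene. By it, 5 members were above the floor on all 6 arrays (Junb, Jund, Fos, Batf and Mafk), Jun and Fosl2 were on 5, Fosb and Fosl1 on 2, and Maff on 1. The tests came from limma on the 11698 genes that 2 or more arrays placed above the floor, which held 9 members and not Maff. An additive model over the 6 arrays estimated 3 effects: TGF-β for 12 h and for 24 h, each over the arms with and without drug, and SP600125 over the 3 TGF-β states. Its error comes from how far arrays depart from that additive pattern. A model of TGF-β by SP600125, with 12 h and 24 h as repeats, gave the interaction. "Rose" and "fell" are kept for a Benjamini-Hochberg adjusted p under 0.05 over all genes tested, and errors after ± are standard errors from limma.

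The array of cells given both agents for 24 h stood apart, with an 18S ribosomal RNA signal of 5878.2 against 506.5 to 881.5 on the other 5 and an actin 3′/5′ ratio of 1.89 against 1.25 to 1.51. Of the listed B cell markers, 9 of 9 measured were above the floor on every array. Their summed signal was 58386.3 to 71832.5 on the arrays with SP600125 and 77636.0 to 96922.3 on those without. The T and NK cell markers summed to 156.9 to 352.1, with 5 of 7 measured (Cd3d, Cd3g, Cd4, Cd247 and Ncr1) under the floor on every array, Cd8a above it on 3 and Cd3e on 2. Myeloid markers summed to 757.8 to 1156.3; of 8, Csf1r and Adgre1 were above the floor on all 6 arrays, Lyz2 and Mpo on 3, Elane on 2, and Cd14, Itgam and S100a8 on none. Fibroblast markers summed to 282.1 to 425.1; of 7, Col1a2 was above the floor on 5 arrays, Col3a1 on 2, Pdgfra and Lum on 1, and Col1a1, Dcn and Pdgfrb on none.

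The promoters of Junb and Jund are shown because both genes rose at 24 h of TGF-β, and those of Jun and Maff because they hold an AP-1-type element. Windows of 250 bases before the listed start were found for 9 of the 10 members, 11 windows in all, in RefSeq on GRCm38.p6. Capitals mark matches to TGACTCA, the AP-1 site, TGACGTCA, the cyclic AMP response element, TGACATCA, the form known from the Jun promoter, or GTCTAGAC, the Smad palindrome, on either strand. Each sequence runs 5′ to 3′ on the gene's strand and stops 1 base before the start.
Jun, chr4:95052223-95052472, minus strand: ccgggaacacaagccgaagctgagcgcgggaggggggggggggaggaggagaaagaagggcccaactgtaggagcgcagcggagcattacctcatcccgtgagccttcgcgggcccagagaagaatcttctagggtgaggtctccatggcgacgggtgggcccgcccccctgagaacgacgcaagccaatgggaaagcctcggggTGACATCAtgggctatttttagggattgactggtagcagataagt
Junb, chr8:84978749-84978998, minus strand: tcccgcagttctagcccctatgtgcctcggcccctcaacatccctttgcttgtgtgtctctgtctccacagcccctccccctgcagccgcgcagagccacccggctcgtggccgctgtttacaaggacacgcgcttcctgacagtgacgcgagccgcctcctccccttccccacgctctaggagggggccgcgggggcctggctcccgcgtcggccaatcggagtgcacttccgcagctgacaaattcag
Jund, chr8:70697489-70697738, plus strand: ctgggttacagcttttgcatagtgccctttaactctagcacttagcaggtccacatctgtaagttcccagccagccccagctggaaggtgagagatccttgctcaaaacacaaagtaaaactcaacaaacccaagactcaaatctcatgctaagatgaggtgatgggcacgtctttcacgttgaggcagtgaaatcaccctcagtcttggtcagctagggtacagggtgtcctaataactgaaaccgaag
Maff, chr15:79347270-79347519, plus strand: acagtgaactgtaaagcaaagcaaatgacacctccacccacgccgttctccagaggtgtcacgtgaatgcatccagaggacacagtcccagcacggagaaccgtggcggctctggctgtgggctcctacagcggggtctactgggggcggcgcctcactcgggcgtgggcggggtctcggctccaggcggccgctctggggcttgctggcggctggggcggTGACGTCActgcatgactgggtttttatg
In the Jun window TGACATCA begins 45 bases before the start, and in the Maff window, the second of 3 listed starts, TGACGTCA begins 29 bases before it. The third Maff window also holds TGACATCA, 45 bases before its start. No member window holds TGACTCA or GTCTAGAC, and the Smad box CAGAC is in 1 of 11, the third Maff window. No matches overlapped. Among 32851 windows of the same length over all genes, 4.46% hold TGACTCA, 1.55% TGACGTCA, 2.93% TGACATCA, 0.167% GTCTAGAC and 42.2% CAGAC. These matches describe the letters only.

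Among the Jun proteins, Jund, which restrains proliferation in mouse fibroblasts, had higher signal on all 4 TGF-β arrays than on either unstimulated array. Its signal with SP600125 was 2767.5, 8734.0 and 11944.9 after 0, 12 and 24 h. Without drug it was 3567.6, 9629.0 and 10542.6 after 0, 12 and 24 h. In limma Jund rose at 12 h by 1.55 ± 0.13 (log2), adjusted p 0.00127, in 2 of 2 pairs. At 24 h it rose by 1.84 ± 0.13, adjusted p 0.000334 in limma, again in 2 of 2 pairs. Both values come from the brighter probe set, since the dimmer one had signals of 73.1 to 84.4 with SP600125 and 19.1 to 61.7 without, under the floor on 4 of 6 arrays, and its limma effects were −0.06 ± 0.20 at 12 h and 0.03 ± 0.20 at 24 h. With both probe sets averaged the 12 h effect was 0.74, adjusted p 0.0725 in limma, and with no intensity trend the 12 h call was also lost, at an adjusted p of 0.0683.

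Junb, an immediate-early member that is a weaker activator than Jun on single AP-1 sites, passed the test at 24 h and not at 12 h. With SP600125 its signal was 569.4, 994.1 and 1705.6 after 0, 12 and 24 h. Without drug it was 881.7, 891.4 and 1709.5 at the same times. Both 24 h arrays were thus the highest of their arm, and the drug-alone array was the lowest of all. In limma Junb rose by 1.27 ± 0.20 at 24 h, adjusted p 0.00641, in 2 of 2 pairs. At 12 h its effect was 0.41 ± 0.20 with an adjusted p of 0.286 in limma. The direct test of 24 h against 12 h gave 0.86 ± 0.20, with an unadjusted p of 0.00269 and an adjusted p of 0.108 in limma, and the same contrast for Jund gave 0.29 ± 0.13 with an adjusted p of 0.347.

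Jun, the direct substrate of JNK and a gene that AP-1 itself activates, was near the floor without TGF-β. Its signal with SP600125 was 71.7, 191.6 and 244.9 after 0, 12 and 24 h. Without drug it was 95.9, 92.4 and 113.0. The highest signals were thus on the arrays that held both agents. With drug, Jun was at least 2.58-fold higher at 12 h of TGF-β and at least 3.30-fold higher at 24 h, against 1.04-fold lower and 1.18-fold higher without drug. Its dimmer probe set had 38.9, 101.9 and 218.2 with SP600125 and 84.7, 53.5 and 109.7 without. In limma the effects of TGF-β on Jun were 0.66 ± 0.38 at 12 h and 0.98 ± 0.38 at 24 h, with adjusted p of 0.361 and 0.116.

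**Figure D1:**
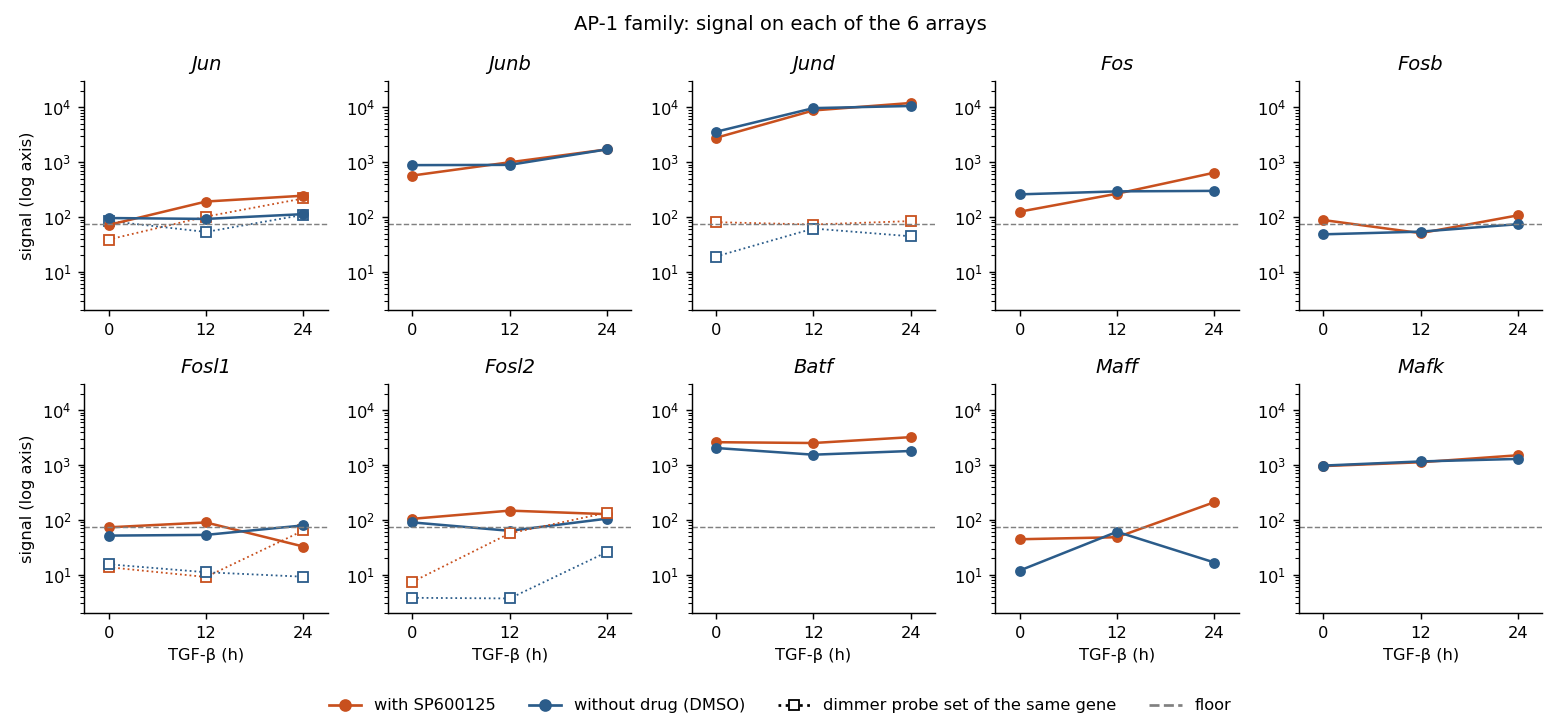
Signal of each AP-1 member (log axis) against hours of TGF-β, with SP600125 in orange and without drug in blue; each point is 1 array, open squares are the dimmer probe set of the gene and the dashed line is the floor of 74.2. Jund is higher on all 4 TGF-β arrays in both arms, Jun and Fos reach their highest signal with both agents, and Maff is above the floor on 1 array.

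Over the family, 1 of the 9 members tested rose at 12 h of TGF-β and 0 fell, against 2.74% of all genes risen and 2.5% fallen. At 24 h 3 rose, namely Junb, Jund and Mafk, and 0 fell, against 9.16% of all genes risen and 7.59% fallen. For 24 h against 12 h 0 of 9 passed in limma, with 1 at an unadjusted p under 0.05, against 0.0684% of all genes risen and 0.0256% fallen. Over all 11698 genes, 1796 had an unadjusted p under 0.05 for that contrast in limma. The median effect was 0.24 at 12 h and 0.53 at 24 h, beside 0.02 and 0.07 over all genes tested. Mafk rose by 0.53 ± 0.14 at 24 h, adjusted p 0.0400 in limma, in 2 of 2 pairs. Its signal was 952.3, 1119.2 and 1501.0 after 0, 12 and 24 h with SP600125, and 972.2, 1157.5 and 1287.1 without. The call for Mafk was lost in 6 of 8 alternatives, among them median scaling of the arrays, where the effect was 0.40 with an adjusted p of 0.0901 in limma. Without the 24 h array with both agents no member passed, and limma called 0 genes at either time; 2332 genes at 12 h and 2645 at 24 h then had an unadjusted p under 0.05. The values for Jund were then 1.55 at 12 h and 1.62 at 24 h, with adjusted p of 0.131 and 0.138 in limma, and that for Junb at 24 h was 1.15. That fit averages the 24 h effect over 1 array only.

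The Fos proteins do not pair with each other and need a Jun partner. Fos, the classical serum-induced member, had signals of 125.0, 266.1 and 643.4 after 0, 12 and 24 h with SP600125, and of 258.8, 293.3 and 299.6 without. The drug-alone array was the lowest and the 24 h array with drug the highest. With drug, Fos was 2.13-fold higher at 12 h and 5.15-fold higher at 24 h of TGF-β, against 1.13-fold and 1.16-fold without. In limma its effects were 0.64 ± 0.44 at 12 h and 1.29 ± 0.44 at 24 h, with adjusted p of 0.460 and 0.0861. The 24 h value was 0.44 without the 24 h array with both agents, and with no floor it was 1.21 and passed, at an adjusted p of 0.0310 in limma.

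Fosb, Fosl1 and Fosl2 had signals of 32.6 to 147.1. Fosb, which is induced with Fos by serum, had 88.2, 50.9 and 107.5 at 0 h, 12 h and 24 h with SP600125, and 48.4, 54.2 and 74.1 without. Fosl1, which encodes FRA-1, had 73.0, 89.6 and 32.6 with drug and 51.6, 53.2 and 79.2 without. Fosl2, which encodes FRA-2, had 104.3, 147.1 and 126.9 with drug and 89.8, 63.1 and 105.1 without. None of the 3 passed in any limma contrast, with adjusted p from 0.222 for SP600125 on Fosl2 upwards. The dimmer probe set of Fosl2 was above the floor on 1 array, at 134.9 with TGF-β for 24 h and SP600125, and that of Fosl1 on none.

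**Figure D2:**
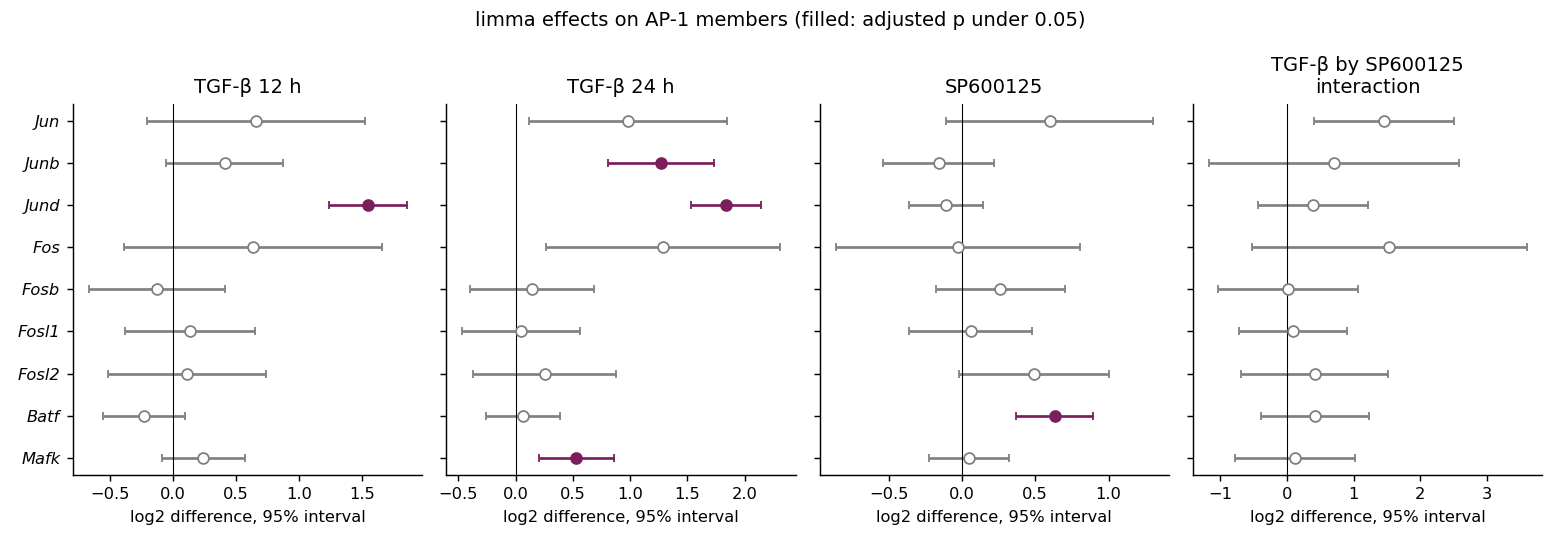
Log2 differences from limma with 95% intervals for the 9 members tested, in panels for 12 h and 24 h of TGF-β, for SP600125 and for their interaction; filled points passed at an adjusted p under 0.05. Jund passed at both times, Junb and Mafk at 24 h, Batf with SP600125, and no member in the interaction.

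Batf was the member that rose with SP600125. With drug its signal was 2595.5, 2507.5 and 3206.8 at 0 h, 12 h and 24 h, and without drug 2034.8, 1536.0 and 1794.6, so all 3 arrays with drug lay above all 3 without. In limma Batf rose by 0.63 ± 0.11, adjusted p 0.0162, higher in 3 of 3 pairs. It was 1 of 9 members risen, with 0 fallen, against 4.15% of all genes risen and 3.76% fallen. Its fold was 1.28, 1.63 and 1.79 after 0, 12 and 24 h of TGF-β. The call for Batf was lost with each gene's probe sets averaged, at an adjusted p of 0.0731 in limma. It was also lost with no intensity trend, at 0.109, and with no filter, at 0.297 in limma. Without the 24 h array with both agents it was lost too, with an effect of 0.53 and an adjusted p of 0.254 in limma. The 0 h and 12 h pairs do not use that array. In the same contrast 5 of 9 B cell markers fell and 0 rose: Cd22 at −1.28 ± 0.14, Ms4a1 at −0.99 ± 0.09, Ptprc at −0.96 ± 0.08, Ebf1 at −0.66 ± 0.16 and Cd79a at −0.57 ± 0.13. Other probe sets of Cd22 and Ms4a1 also passed, at −1.32 ± 0.23 and −1.01 ± 0.11. Another of Ptprc gave −0.09 ± 0.25 and did not pass. Nor did the others of Ebf1, at −0.66 ± 0.20, −0.49 ± 0.28 and 0.0007 ± 0.27. Of the B cell markers that did not pass, Cd74 was at −0.21 ± 0.09 and Pax5 at −0.20 ± 0.24. The rest went the other way, Cd79b at 0.05 ± 0.11 and Blnk at 0.28 ± 0.11, with Blnk higher in 3 of 3 pairs. The myeloid marker Adgre1 fell too, at −0.83 ± 0.21. The part of these markers in the result for Batf was not tested. With TGF-β Cd74 rose at 12 h and 24 h, by 0.66 ± 0.11 and 0.68 ± 0.11, and Blnk fell at 12 h, at −0.73 ± 0.14. TGF-β effects on Batf were −0.23 ± 0.14 at 12 h and 0.06 ± 0.14 at 24 h, with adjusted p of 0.398 and 0.811 in limma.

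Maff had signals of 44.3, 48.2 and 210.0 after 0, 12 and 24 h with SP600125, and of 11.9, 60.6 and 16.7 without. Only the array with both agents at 24 h was above the floor. There Maff was at least 2.83-fold above the drug-alone array and at least 2.83-fold above TGF-β for 24 h without drug. This is also the array with the 18S signal of 5878.2, whose part in the result was not tested.

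The study design defined inducible genes by a 2-fold increase and asked which inductions the drug reduced by more than 75%. Among the 10 members only Jund was at least 2-fold higher without drug, 1 at 12 h against 2.91% of all genes and 1 at 24 h against 4.89%. None was at least 2-fold lower, against 1.31% at 12 h and 1.72% at 24 h. For every pair of arrays, all genes means the 12997 above the floor on 1 or more arrays. The increase of Jund in signal at 12 h was 5966.5 with SP600125 and 6061.4 without, which is 1.6% smaller. At 24 h the increase was 9177.4 with SP600125 and 6975.0 without, which is 31.6% larger. The 24 h signal with drug is from the array with the 18S signal of 5878.2, whose part was not tested. Jund was 3.16-fold higher at 12 h and 4.32-fold at 24 h with drug, against 2.70-fold and 2.96-fold without. The effect of SP600125 on Jund averaged over the 3 states was −0.11 in limma, with a 95% interval from −0.36 to 0.14 and an adjusted p of 0.601, and that on Junb was −0.16 with an interval from −0.54 to 0.22.

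In the drug arm the count past 2-fold was higher, and that difference in count has no test. At 12 h of TGF-β 3 of 10 were at least 2-fold higher, namely Jun, Jund and Fos, against 2.24% of all genes. At 24 h 5 were, namely Jun, Junb, Jund, Fos and Maff, against 4.16%. None was at least 2-fold lower in either pair, against 1.17% and 1.8% of all genes. These pairs share the drug-alone array, on which Jun, Junb, Jund and Fos each had the lowest of their 6 signals. In the 12 h pair drug exposure was 12 h with TGF-β and 24 h on the drug-alone array. There the time of drug and TGF-β cannot be told apart. The 24 h pair also uses the array with the 18S signal of 5878.2 and the actin 3′/5′ ratio of 1.89. That ratio was 1.51 on the drug-alone array and 1.25 to 1.32 on the remaining arrays. The part of array quality in these counts was not tested. SP600125 alone left Fos 2.07-fold lower, Junb 1.55-fold lower, Jund 1.29-fold lower and Jun at least 1.29-fold lower than in untreated cells. Fos was 1 member at least 2-fold lower, against 1.15% of all genes, and 0 were higher, against 2.8%.

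**Figure D3:**
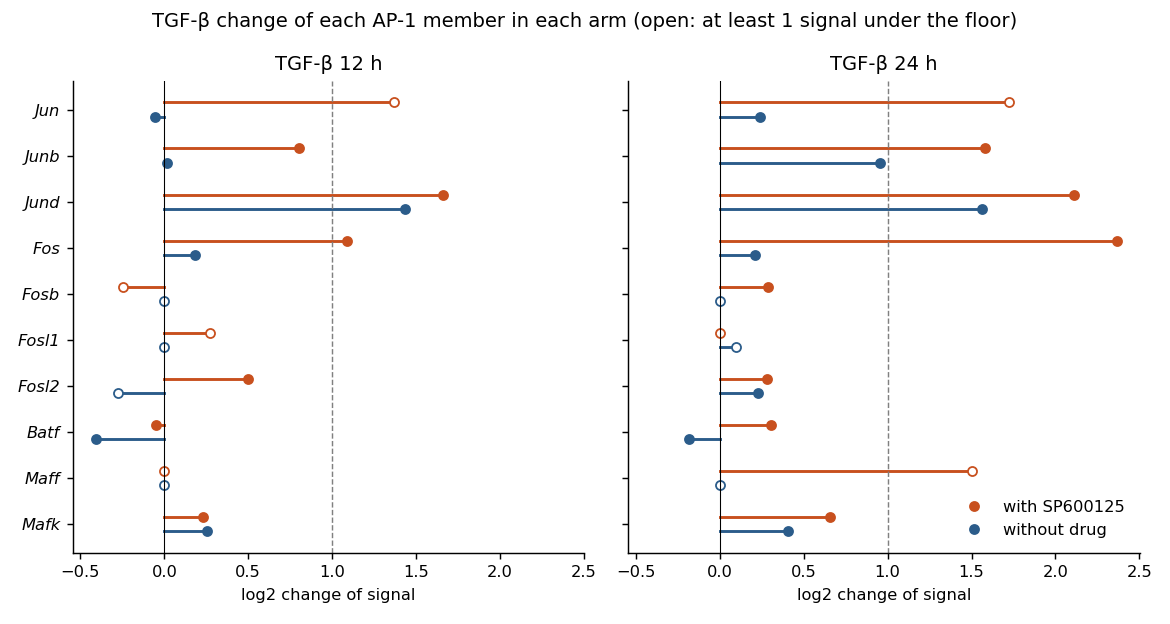
Log2 change of signal with TGF-β in each arm at 12 h and 24 h, with SP600125 in orange over without drug in blue; each point compares 2 arrays, open points involve a signal under the floor and the dashed line marks 2-fold. Jund is past 2-fold in all 4 pairs, and Jun and Fos are past it only in the pairs with drug.

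The interaction of TGF-β and SP600125 is the test of whether the TGF-β change differed between arms. Its error comes from the difference between 12 h and 24 h within each arm, so a gene that changes with time has a larger error. A gene that does not pass is therefore not shown to behave alike in both arms. The interaction was 1.45 ± 0.41 for Jun, with a 95% interval from 0.40 to 2.51. Its unadjusted p was 0.0167 and its adjusted p 0.999 in limma. The dimmer probe set of Jun gave 0.92 ± 0.76, with an unadjusted p of 0.289 in limma. With all probe sets averaged, a floor at the 25th percentile or no floor, no member had an unadjusted p under 0.05. For Fos the interaction was 1.53 ± 0.79, for Junb 0.71 ± 0.72 and for Jund 0.39 ± 0.32, each with an adjusted p of 0.999 in limma. No member passed, and limma called 0 of 11698 genes, with 314 at an unadjusted p under 0.05. With no filter on low signals limma called 395 of 18194 genes and no member; 326 of the 395 were above the floor on 1 array only and 69 were among the 11698. At 12 h of TGF-β Jun was 2.07-fold higher with SP600125 than without, the only member of 10 past 2-fold, against 1.62% of all genes, and it was under 2-fold after median or quantile scaling. At 24 h Jun was 2.17-fold higher, Fos 2.15-fold and Maff at least 2.83-fold, 3 members against 2.89% of all genes. After median scaling 1 member was past 2-fold in that pair. The dimmer probe set of Jun was 1.99-fold higher there. This pair uses the array with the 18S signal of 5878.2, whose part was not tested. No member was 2-fold lower at 12 h or 24 h, against 1.0% and 1.77% of all genes.

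Other bZIP factors pair with AP-1 proteins or compete for their partners. Of 14 tested, 7 rose with SP600125 and 0 fell, against 4.15% of all genes risen and 3.76% fallen, with a median of 0.80 beside 0.04 over all genes. Jdp2, a repressor that pairs with Jun and binds AP-1 sites, had 653.2, 697.7 and 798.1 at 0 h, 12 h and 24 h with drug and 116.2, 124.3 and 167.4 without. It rose by 2.41 ± 0.19, adjusted p 0.000592 in limma, in 3 of 3 pairs, and by 1.19 with all its probe sets averaged. Cebpb rose by 2.87 ± 0.13, Atf5 by 2.49 ± 0.13 and Ddit3, which encodes CHOP, by 2.14 ± 0.15, where another probe set of Ddit3 gave 0.29 ± 0.35. Atf4, Nfe2l1 and Bach2 also rose, by 1.49 ± 0.08, 1.32 ± 0.11 and 0.78 ± 0.13. Other probe sets of Bach2 gave 1.03 ± 0.17, which passed, and 0.17 ± 0.21, which did not. Atf3, which pairs with Jun, was at 0.82 ± 0.27 with an adjusted p of 0.107 in limma. With TGF-β at 24 h 3 rose and 0 fell, against 9.16% and 7.59% of all genes, with a median of 0.11 beside 0.07: Bach2, a repressor that pairs with small Maf proteins, by 1.06 ± 0.16 (1.68 and 0.63 in its other probe sets), Ddit3 by 0.91 ± 0.18 and Nfe2l1 by 0.56 ± 0.13. Another probe set of Ddit3 gave 0.46 ± 0.43 at that time and did not pass. At 12 h 0 rose and 1 fell, against 2.74% and 2.5%, namely Cebpb at −0.81 ± 0.16. Nfe2l2, which encodes NRF2, was at −0.02 ± 0.09 with SP600125. Without the 24 h array with both agents none of these passed; Jdp2 was then at 2.49 and Cebpb at 2.72.

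**Figure D4:**
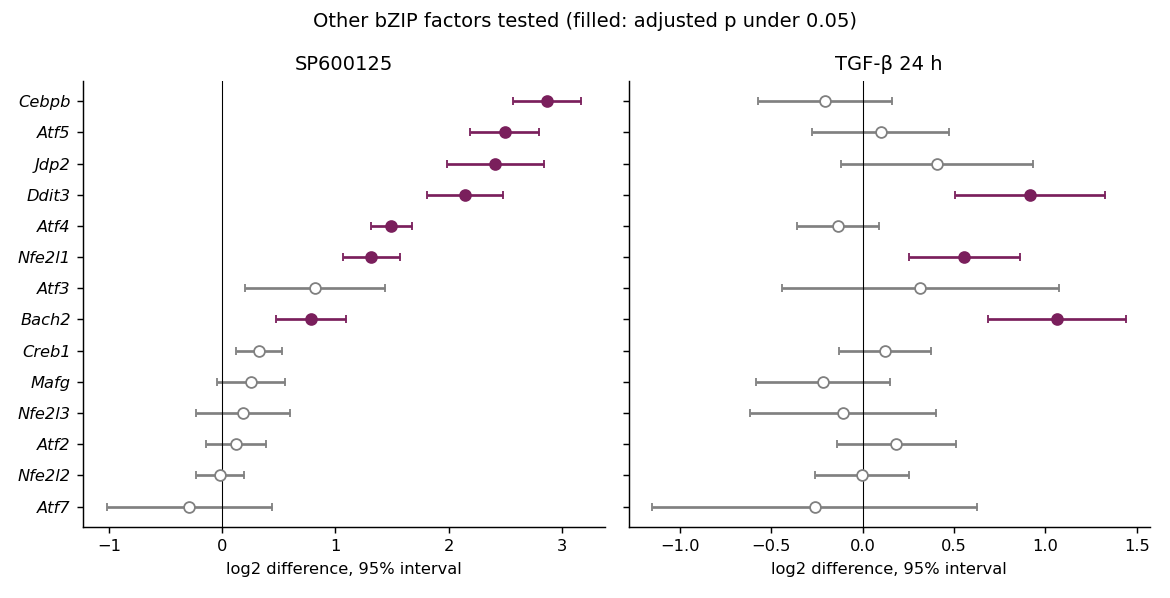
Log2 differences from limma with 95% intervals for the 14 other bZIP factors tested, for SP600125 on the left and 24 h of TGF-β on the right; filled points passed at an adjusted p under 0.05. Of these, 7 rose with the drug and 3 with TGF-β at 24 h.

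In the JNK cascade 0 of 17 genes passed at 12 h of TGF-β, while 4 rose and 0 fell at 24 h, against 9.16% of all genes risen and 7.59% fallen, with a median of 0.04 beside 0.07. Without the 24 h array with both agents 0 passed at 24 h. Gadd45b, which binds an upstream kinase of the cascade, rose by 1.51 ± 0.26, and its other probe sets gave 1.18 ± 0.24 and 1.88 ± 0.32. Map3k7, which encodes TAK1, rose by 0.51 ± 0.12, while its other probe sets gave 0.41 to 0.65 and none of them passed. The scaffold gene Spag9 rose by 0.49 ± 0.13, which was 0.16 and did not pass with all its probe sets averaged. Map3k12 rose by 1.35 ± 0.24, but its other probe sets gave −0.65 ± 0.23 and −0.12 ± 0.24. With SP600125 0 rose and 1 fell, against 4.15% and 3.76%, namely Map4k1 at −0.37 ± 0.09, and the median was 0.24 beside 0.04. The kinase genes Mapk8 and Mapk9, which encode JNK1 and JNK2, were at −0.09 ± 0.12 and −0.40 ± 0.15 with drug, adjusted p 0.711 and 0.139 in limma. Of 8 genes of AP-1 protein turnover, among them the ligase gene Fbxw7, 0 passed in limma in any contrast, with 2 at an unadjusted p under 0.05 at 12 h, 3 at 24 h and 0 with the drug. Of 7 IRF, NFAT and Ets partners 0 passed in limma, with 1, 2 and 0 at an unadjusted p under 0.05 in the same contrasts. Over all 11698 genes tested, 2555, 3669 and 2824 had an unadjusted p under 0.05 in limma in these contrasts.

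Of the genes listed here as AP-1 targets 15 were tested. Whether AP-1 or another factor acts on them in these cells was not tested. With TGF-β 1 rose and 0 fell at 12 h, against 2.74% and 2.5% of all genes, namely Gclm, of glutathione synthesis, by 0.63 ± 0.13, where another probe set gave 0.19 ± 0.21. At 24 h 1 rose, Il10, by 1.47 ± 0.38, and 1 fell, the thioredoxin reductase gene Txnrd1, at −0.53 ± 0.13, with −1.05 and −1.27 in its other probe sets, against 9.16% and 7.59% of all genes. With SP600125 1 rose, Vegfa, by 2.07 ± 0.23, and 2 fell, Il10 at −1.26 ± 0.31 and Hmox1 at −0.34 ± 0.08, against 4.15% and 3.76% of all genes. Without the 24 h array with both agents none of these target genes passed, and Il10 was at 2.20 for 24 h of TGF-β and at −0.77 with SP600125. Il10 had 120.7, 245.3 and 199.0 at 0 h, 12 h and 24 h with drug and 202.8, 423.2 and 940.0 without, and its interaction was −0.76 ± 0.75 with an adjusted p of 0.999 in limma. The list medians were 0.03 at 12 h, 0.02 at 24 h and −0.16 with SP600125, beside 0.02, 0.07 and 0.04 over all genes.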

How the data were processed

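The deposited intensity values are 1 linear signal for each of 45101 probe sets on each of 6 arrays, which the authors made in GCOS; the submitters' processing notes name version 1.2, and its scaling settings are not stated there. The 2% trimmed mean of the deposited intensity was 500.0 on every array, and array medians were 69.3 to 80.9, so no further scaling was applied. Precision is limited by having 6 arrays. Names came from the platform annotation, for 34958 probe sets with 1 symbol; 932 had several and 9211 were not listed. The brightest probe set by mean log2 signal stood for each gene, with the floor and filter given above.

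Tests were run in limma 3.58.1 with R 4.3.3, with an intensity trend. The additive model had 2 residual degrees of freedom and a prior of 6.09, and the interaction model 2 and 2.84. The fit was tested on simulated data for the 24 h effect. It recovered 75 of 100 changes of 1 (log2) and 100 of 100 changes of 2, with 12 false calls. The simulated noise was normal and independent between arrays, with no interaction of TGF-β and drug built in. How the fit behaves under such departures from additivity was therefore not tested. P-values reflect variation among these arrays alone, which may be technical. Fold changes use the floored scale and understate the change of dim genes.

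The members and lists were chosen with earlier results of these data known. The lists hold AP-1 members, other bZIP factors, the JNK cascade, AP-1 protein turnover, IRF and NFAT partners, AP-1 targets and markers of B cells, T and NK cells, myeloid cells and fibroblasts; 117 of 125 genes were found by symbol. All 10 members are named. From each other list the genes that passed a contrast are named, at most 4 per contrast with the largest effect. Named outside that rule are Mapk8, Mapk9, Nfe2l2, Nfe2l1 and Bach2 with SP600125, Atf3, Atf4, Fbxw7, Irf4 and Irf8. So are the fifth B cell marker, the B cell markers that did not pass with SP600125 and the markers named for their level. Alternatives were median and quantile scaling, the mean of all probe sets, a floor at the 25th percentile, log2(signal + 16) with no floor, no filter, no trend, and leaving out the 24 h array with both agents.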

Additional observations from a re-analysis of the deposited data

Results flagged for a closer look

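Jun was singled out because the log2 difference with SP600125 had opposite signs without and with TGF-β. With TGF-β it was 1.05 after 12 h and 1.12 after 24 h, and without TGF-β it was −0.37, where the drug-alone signal was under the floor. The test of that difference is the interaction of TGF-β and SP600125, which had an adjusted p of 0.999 in limma. With the change from 12 h to 24 h as its error, that test does not show that the arms are alike. The dimmer probe set of Jun gave an interaction of 0.92 ± 0.76.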

How the results depend on the processing

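Under the 8 alternatives, 416 of the single-gene values kept their direction and side of the threshold, 98 lost a call, 2 gained one and 20 changed sign, and no called effect of a member changed sign. With no filter the prior of limma was 0.618 degrees of freedom. With no filter, and without the 24 h array with both agents, 0 members were called at 12 h, at 24 h or with SP600125, 0 other bZIP factors with SP600125 or at 24 h, and 0 JNK cascade genes at 24 h. With no intensity trend, and likewise after averaging a gene's probe sets, 0 members were called at 12 h and 0 with SP600125. With no trend 0 other bZIP factors and 0 JNK cascade genes were called at 24 h, and after averaging 1 and 1, Bach2 and Gadd45b. The alternatives for list genes other than members were chosen after seeing the data. With no floor Junb passed as 1 member for 24 h against 12 h, adjusted p 0.0359 in limma, and Fos passed at 24 h, which made 4 members called. Over all genes limma called 612 at 12 h, 1960 at 24 h, 11 for 24 h against 12 h and 925 with SP600125. With no filter these were 2, 3, 4 and 0, with no trend 20, 570, 0 and 94, after averaging 86, 964, 0 and 175, and with no floor 1009, 2345, 283 and 1266. For 24 h against 12 h median scaling gave 2, quantile scaling 33 and the lower floor 26. The interaction had 395 calls with no filter, of which 183 genes were above the floor on the drug-alone array only and 143 on the untreated array only, and 0 in the other alternatives; at an unadjusted p under 0.05 those had 339 to 679 genes. The cause of these changes was not tested. Jund at 12 h was 0.74 with the mean of both its probe sets, 1 of them under the floor on 4 arrays.

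In pairs without drug, the mean of all probe sets left 0 members 2-fold higher at 12 h and 0 at 24 h, and at 12 h a lower floor or no floor gave 2, with Maff added. With drug at 12 h the mean left 1. For the drug at 0 h a lower floor or no floor gave 1 higher, Maff, and no floor 0 lower. For the drug at 12 h median scaling, quantile scaling and the mean each gave 0 higher and a lower floor 2; at 24 h median scaling gave 1. A lower floor made Fosl1 the 1 member lower at 24 h with TGF-β and drug, and the 1 lower for the drug at 24 h. The share of all genes past 2-fold was not computed under these alternatives. A changed count here therefore cannot be told apart from a shift of the whole array. The Jund increase at 12 h was 5.2% smaller with drug after median scaling, while quantile scaling gave −4.5% smaller, that is, a larger increase.

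None of the values that changed sign was past the threshold. Without the 24 h array with both agents they were Fosb −0.06 and Batf −0.09 at 24 h; Jun −0.07, Fos −0.20 and Fosl1 0.03 for 24 h against 12 h; Mafk −0.04 with SP600125; and the interactions of Fosb −0.25 and Mafk −0.10. After median scaling they were Batf −0.07 at 24 h, Mafk −0.03 with SP600125 and the interaction of Fosb −0.09, which was −0.07 after quantile scaling. With the lower floor they were Fosl2 −0.01 at 12 h, Fosl1 −0.27 at 24 h and −0.01 with SP600125, and the interactions of Fosb −0.64 and Fosl1 −0.76. With no floor they were Fosl1 −0.19 at 24 h and the interactions of Fosb −0.50 and Fosl1 −0.58.

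No paired analysis was possible because each condition had 1 array and the labels carry no replicate numbers; the additive model matches arrays by TGF-β state and by arm.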

Other observations

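Irf4, which encodes a partner of BATF on AP-1 and IRF composite elements, was looked at after its values were seen. With SP600125 its signal was 356.2, 139.1 and 289.1 after 0, 12 and 24 h, and without drug it was 262.4, 433.3 and 692.2. Without drug both TGF-β arrays lay above the untreated one, while both TGF-β arrays with drug lay under the drug-alone array. The interaction was −1.89 ± 0.78 in limma, with an unadjusted p of 0.0619 and an adjusted p of 0.999. Irf8, the related factor, had 1008.1, 689.3 and 680.2 with drug and 1053.0, 603.7 and 774.8 without.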
